A study of Homo sapiens with 24 samples.

Results

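The SNHG1-hosted box C/D snoRNAs are 8 small nucleolar RNAs whose sequences lie in introns of one long non-coding RNA gene, SNHG1. They were taken by symbol from a count table of 28307 genes: SNORD22, SNORD25, SNORD26, SNORD27, SNORD28, SNORD29, SNORD30 and SNORD31. Of the 8, 7 had reads in each of the 24 libraries and SNORD25 had none. The table came from RNA immunoprecipitation sequencing of HCT116, an established line from a human colorectal carcinoma. Cells carried GFP on RUVBL1 or on RPAP3, placed by CRISPR knock-in. RNA was recovered on beads carrying an anti-GFP binder, here GFP beads, or on the same kind of agarose without it, here uncoupled beads. The RUVBL1 line gave 8 groups: GFP beads and uncoupled beads after CB-6644, after CB-6644 with puromycin, after puromycin, and from untreated cells. The RPAP3 line gave 4 groups: GFP beads and uncoupled beads after puromycin and from untreated cells. CB-6644, which blocks the ATPase activity of RUVBL1 and RUVBL2, was given at 0.5 µM for 16 h, and puromycin, which ends translation early, at 100 µg/mL for 30 min. Every group had 2 libraries, and all 12 groups share the knock-in background of their line. No untagged line is among these 12 groups. The labels do not say whether a line was a single clone, nor whether replicates were separate cultures, so the p-values speak for the scatter among these libraries, which may be technical.

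SNHG1 is also known as the U22 host gene. Its spliced RNA encodes no known protein and decays quickly by a translation-dependent route. Its introns are processed into box C/D snoRNAs, which base-pair with ribosomal RNA and direct the methylation of riboses. In the mature particle the RNA is held by FBL, the methyltransferase, and by NOP56, NOP58 and SNU13. Assembly of the particle is assisted by R2TP, the HSP90 co-chaperone built from RUVBL1, RUVBL2, RPAP3 and PIH1D1, and by the factors NUFIP1, ZNHIT3 and ZNHIT6. RUVBL1 and RUVBL2 are known to be present on snoRNP precursors and absent from the finished particle.

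In the RefSeq annotation of GRCh38.p14, SNHG1 (gene ID 23642) covers 62851978 to 62855885 of chromosome 11 on the minus strand, 3908 bases. All 8 snoRNAs have the same chromosome and lie inside it. From the host's start they come in the order SNORD25 (62855565 to 62855631), SNORD26 (62855292 to 62855366), SNORD27 (62855012 to 62855083), SNORD28 (62854621 to 62854695), SNORD29 (62853904 to 62853968), SNORD30 (62853663 to 62853732), SNORD31 (62853326 to 62853393) and SNORD22 (62852910 to 62853035). SNORD22 is 126 bases long, and the other 7 are 65 to 75 bases. The intronic snoRNAs have no start site of their own: 0 of the 8 had a promoter window in the RefSeq table of 35116 windows, and the host's window is the one upstream of them all. It is shown because the 8 snoRNAs and the host RNA are annotated behind this same start. The window is chr11:62855836-62856135 (GRCh38.p14, minus strand), with the 250 bases before the annotated start in lower case and the 50 bases from it in capitals.
SNHG1 promoter window: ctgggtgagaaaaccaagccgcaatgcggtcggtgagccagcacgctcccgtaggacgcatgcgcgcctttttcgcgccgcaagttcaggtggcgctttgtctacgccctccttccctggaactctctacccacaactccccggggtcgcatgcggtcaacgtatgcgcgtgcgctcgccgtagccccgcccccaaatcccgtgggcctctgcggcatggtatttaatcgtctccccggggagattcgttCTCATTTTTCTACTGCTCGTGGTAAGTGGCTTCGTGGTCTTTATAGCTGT
G and C made up 63.2% of the 250 bases before the start, against a median of 58.0% over all windows, and 44.0% of the 50 bases after it. The capitals open with a pyrimidine-rich run that an A interrupts. Several snoRNA host genes are classed with the terminal oligopyrimidine genes, whose transcripts begin with an unbroken run of pyrimidines.

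Libraries of the RUVBL1 line held 9019665 to 33051512 counts and those of the RPAP3 line 30844089 to 50394245. CPM below is the usual depth-scaled count, with TMM library factors. Log2 counts of the 2 libraries of a group correlated at 0.932 to 0.98 across genes. In every group they differed by more than counting error, with a chi-square of 13.0 to 93.9 per degree of freedom. 3 RUVBL1 libraries stood apart from the rest. The CB-6644 GFP library 2 lay at -110.5 and replicate 1 of the GFP libraries with both drugs at -71.98 on the first principal component, which held 24.4% of the variance. Replicate 2 of the untreated uncoupled beads had 10974407 counts, but at 13.74 on that component it lay among the other libraries. The main results that rest on these libraries are also given without them. All 7 markers of colon epithelium were in the table, with a summed level of 1610 to 5350 CPM over the libraries, and VIL1, a microvillar protein, had a count in 9 of 24. The 11 markers of blood, stromal, endothelial and liver cells summed to 6.52 to 39.3 CPM, most of it COL1A1 (5.5 to 34.7 CPM), while HBB had a count in 1 of 24 libraries and PTPRC in 5.

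The snoRNAs were recovered in quantity in 4 of the 24 libraries, those of RUVBL1 GFP beads from cells given CB-6644. Their summed counts were 4107 and 9072 on GFP beads after CB-6644, against 134 and 129 on the uncoupled beads. After CB-6644 with puromycin they were 6934 and 7821 on the GFP beads, against 319 and 300 on the uncoupled beads. The other 20 libraries held between 59 and 550 counts, with a median of 179.5. After puromycin alone the sums were 350 and 344 on RUVBL1 GFP beads, against 101 and 59 on the uncoupled beads. In untreated cells they were 429 and 550 on RUVBL1 GFP beads, against 220 and 70 on the uncoupled beads. As levels, the sum was 206 and 839 CPM on GFP beads after CB-6644, against 6.15 and 5.56 CPM on the uncoupled beads. It was 347 and 413 CPM on GFP beads after both drugs, against 11.0 and 14.7 CPM on the uncoupled beads. The ratios of the mean levels were 89.3-fold after CB-6644 (35.2-fold without GFP library 2), 29.7-fold after both drugs, 3.12-fold after puromycin and 2.76-fold in untreated cells. In a bulk sample more RNA per cell and more cells holding it cannot be told apart. All 24 libraries hold RNA recovered on beads, so these levels do not give the levels in the cells.

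**Figure D1:**
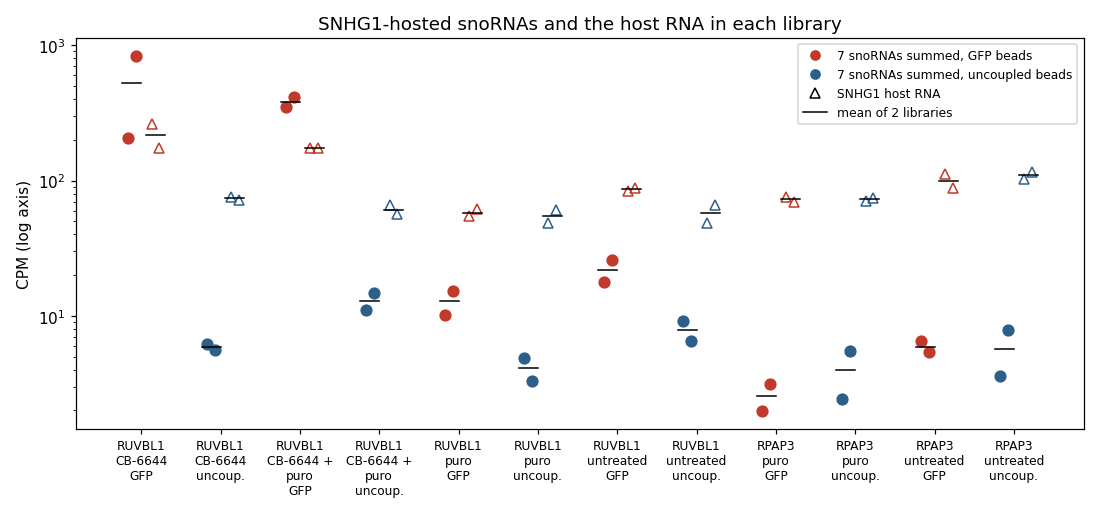
Summed level of the 7 detected snoRNAs (filled circles) and level of the SNHG1 host RNA (open triangles) in each of the 24 libraries, in CPM on a log axis; red marks GFP beads, blue uncoupled beads, and bars the mean of 2 libraries. The 4 GFP libraries with CB-6644 lie between 206 and 839 CPM for the snoRNAs, and the other 20 libraries between 1.99 and 25.8 CPM.

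The first comparison asked which RNAs inhibited RUVBL1 recovered, as the difference between GFP beads and uncoupled beads after CB-6644. All 7 tested snoRNAs were higher on GFP beads, by 4.50 to 6.80 on the log2 scale with a median of 6.30. Of the 15976 genes tested 1.87% were called higher in this comparison, and the median over all genes was 0.02. SNHG1 itself was higher by 1.53 ± 0.23 (adjusted p = 0.000467). A call means an adjusted p under 0.05 in edgeR's quasi-likelihood test with Benjamini-Hochberg adjustment over all genes. Values after ± are, unless marked SD, standard errors from the test's F statistic. They rest on a variance pooled over the fit and moderated across genes, not on the spread of the libraries compared.

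SNORD22, known as U22, is needed for maturation of the small-subunit rRNA in Xenopus oocytes, and no methylation site is assigned to it. Its counts were 2861 and 6482 on RUVBL1 GFP beads after CB-6644, against 87 and 93 on the uncoupled beads. The groups did not overlap, and of all genes tested 24.8% likewise had both GFP libraries above both uncoupled ones in this comparison. The GFP libraries differed widely from each other: the mean level was 371 ± 322 CPM in the GFP libraries and 4.00 ± 0.0118 CPM in the uncoupled ones (SD, n = 2 each). The difference was 6.49 ± 0.60 on the log2 scale, an 89.6-fold difference (edgeR adjusted p = 0.000125).

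SNORD27, SNORD28 and SNORD25 guide methylation of the small-subunit rRNA. SNORD27 had 231 and 355 counts on GFP beads after CB-6644, against 3 and 9 on the uncoupled beads, a log2 difference of 6.30 ± 0.59 (edgeR adjusted p = 3.53e-07). SNORD28 had 42 and 130 counts on GFP beads, against 12 and 1 on the uncoupled beads, and was the least enriched of the 7 at 4.50 ± 0.98 (edgeR adjusted p = 0.019). Neither pair of groups overlapped, but the SNORD28 counts were low on both kinds of bead. SNORD25, the snoRNA nearest the host's start, was listed at 0 in all 24 libraries, out of 640354716 counts in total. Counting error alone allows 3 counts per library, which is 0.0595 to 0.333 CPM, unscaled, depending on the library. Little or no RNA and reads lost or assigned elsewhere in the counting cannot be told apart here.

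SNORD26, SNORD29, SNORD30 and SNORD31 guide methylation of the large-subunit rRNA. SNORD26 had 515 and 1350 counts on GFP beads after CB-6644, against 16 and 13 on the uncoupled beads. This was the largest difference of the 7, 6.80 ± 0.99 (edgeR adjusted p = 0.0108). SNORD29 had 226 and 445 counts on GFP beads, against 1 and 10 on the uncoupled beads, a log2 difference of 6.67 ± 0.68 (edgeR adjusted p = 4.32e-06). SNORD30 had 61 and 130 counts on GFP beads, against 4 and 1 on the uncoupled beads, and the difference was 5.94 ± 0.94 (edgeR adjusted p = 0.000672). SNORD31 had 171 and 180 counts on GFP beads, against 11 and 2 on the uncoupled beads, at 5.36 ± 0.83 (edgeR adjusted p = 0.000832). In each of the 4 both GFP libraries lay above both uncoupled libraries, as in 24.8% of all genes. Ranked by this difference among 15976 genes, the 7 stood at 44 (SNORD26), 54 (SNORD29), 61 (SNORD22), 81 (SNORD27), 125 (SNORD30), 203 (SNORD31) and 292 (SNORD28). They stood at 84 to 352 among 16426 genes without the 3 libraries that stood apart.

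Replicate 2 of these GFP beads was among the 3 libraries that stood apart. Without it the log2 differences were 5.14 ± 0.27 for SNORD22, 5.29 for SNORD26, 5.39 for SNORD27, 5.49 for SNORD29, 4.68 for SNORD30, 4.83 for SNORD31 and 2.79 for SNORD28. SNORD28 was then no longer called (edgeR adjusted p = 0.235), and SNHG1 stood at 1.80. Without all 3 libraries, 6 of the 7 were called, SNORD28 again being the exception at 2.80 (edgeR adjusted p = 0.128), while 3.43% of all genes were called higher. SNORD28 was also not called without replicate 2 of the uncoupled beads (adjusted p = 0.274), nor SNORD26 without replicate 1 or 2 of them (adjusted p = 0.169 and 0.255).

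With puromycin added to CB-6644, 5 of the 7 were called higher on GFP beads and none lower, against 0.557% of all genes called higher. The median of the 7 was 3.97, and that of all genes 0. SNORD26 had 845 and 1084 counts on GFP beads, against 16 and 29 on the uncoupled beads, a log2 difference of 5.70 ± 0.93 (edgeR adjusted p = 0.0331). SNORD22 had 4952 and 5515 counts on GFP beads, against 186 and 147 on the uncoupled beads, and was higher by 5.30 ± 0.56 (adjusted p = 0.000848). These were the same 2 snoRNAs, of the 7, with the most counts after CB-6644 alone. SNORD27 was higher by 4.22 ± 0.50, SNORD30 by 3.97 ± 0.86 and SNORD29 by 3.90 ± 0.56. SNORD31 had 142 and 134 counts on GFP beads, against 20 and 34 on the uncoupled beads, and stood at 2.60 ± 0.71 (edgeR adjusted p = 0.147). SNORD28 had 124 and 69 counts on GFP beads, against 25 and 22 on the uncoupled beads, at 2.34 ± 0.87 (edgeR adjusted p = 0.416). The GFP and uncoupled libraries did not overlap for either, as for 23.2% of all genes with GFP above, and neither passed the test. SNHG1 was higher by 1.52 ± 0.23 (adjusted p = 0.000997). Without all 3 libraries that stood apart 4 of the 7 were called, against 1.11% of all genes called higher, and SNORD30 was not (adjusted p = 0.0601). Leaving out GFP replicate 1 or 2 gave 3 or 4 calls, and leaving out uncoupled replicate 1 or 2 gave 1 or 2. SNORD27 was called in each of these fits.

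**Figure D2:**
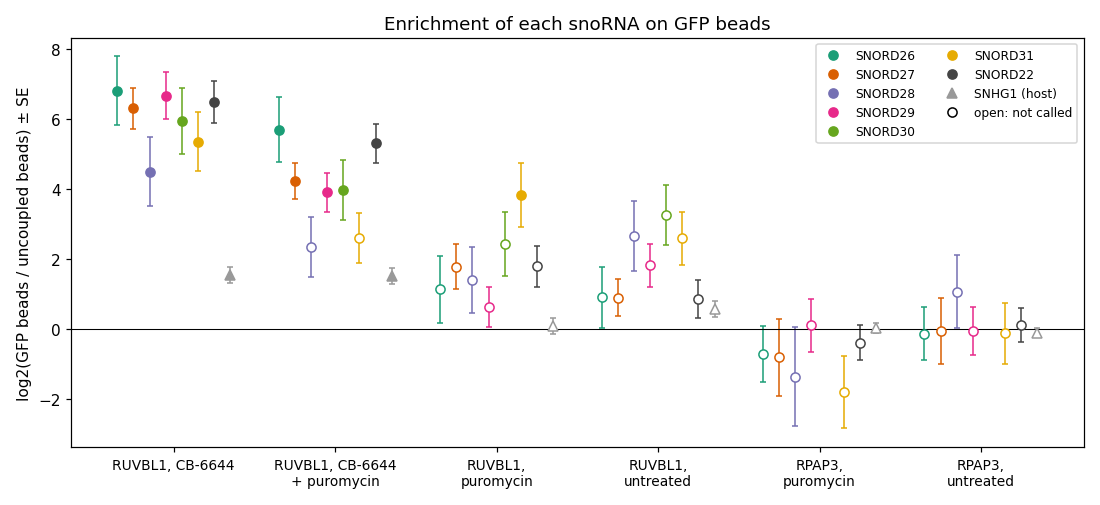
Log2 difference between GFP beads and uncoupled beads for each snoRNA (circles) and the host RNA (triangles) in the 6 combinations of line and treatment, with bars of 1 standard error from the fit; filled symbols are called at an adjusted p under 0.05 and open ones are not. All 7 snoRNAs are filled after CB-6644, 5 after CB-6644 with puromycin, 1 after puromycin, and none in untreated cells or in the RPAP3 line.

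After puromycin alone, in the RUVBL1 line, 1 of the 7 was called, SNORD31, while 9.95% of all genes were called higher. SNORD31 had 30 and 68 counts on GFP beads, against 2 and 3 on the uncoupled beads, and was higher by 3.82 ± 0.91 (edgeR adjusted p = 0.00831). The call was lost without replicate 2 of the GFP beads (adjusted p = 0.16) and without either uncoupled library (adjusted p = 0.15 and 0.0595). The other 6 ranged from 0.62 for SNORD29 to 2.42 for SNORD30. SNORD22 stood at 1.78 ± 0.60 (adjusted p = 0.0711) and SNORD27 at 1.78 ± 0.64 (adjusted p = 0.0636). SNORD22 averaged 4.72 ± 0.772 CPM on GFP beads, against 1.36 ± 0.0635 CPM on the uncoupled beads (SD, n = 2 each), and SNORD27 had 24 and 26 counts on GFP beads, against 5 and 5 on the uncoupled beads. None of the 7 overlapped between the kinds of bead, and 32.1% of all genes likewise had both GFP libraries above both uncoupled ones. Without the 3 libraries that stood apart, none of which belongs to these groups, 4 were called: SNORD31, SNORD22 (adjusted p = 7.68e-06), SNORD27 (0.0207) and SNORD26 (0.0395). In that fit 17% of all genes were called higher.

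In untreated cells 0 of the 7 were called by edgeR, 4 had an unadjusted p under 0.05, and 0.933% of all genes were called, with 11.1% at an unadjusted p under 0.05. DESeq2 also called 0, of the 3 to which it gave an adjusted p. SNORD30 had 51 and 60 counts on GFP beads, against 7 and 2 on the uncoupled beads, at 3.25 ± 0.85 (edgeR adjusted p = 0.0751). SNORD31 had 70 and 84 counts on GFP beads, against 21 and 1 on the uncoupled beads, at 2.59 ± 0.76 (adjusted p = 0.13). SNORD29 had 58 and 56 counts on GFP beads, against 13 and 10 on the uncoupled beads, at 1.82 ± 0.61 (adjusted p = 0.217). SNORD22, with 125 and 189 counts on GFP beads against 86 and 44 on the uncoupled beads, stood at 0.85 ± 0.54 (adjusted p = 0.61). The 7 had a median of 1.82, against -0.04 over all genes. Of the 7 only SNORD26, with 59 and 87 counts on GFP beads against 63 and 4 on the uncoupled beads, overlapped in CPM between the kinds of bead, and 19.6% of all genes had both GFP libraries above both uncoupled ones. Without the 3 libraries that stood apart, of which the replicate 2 uncoupled library is one, 2 were called, SNORD22 at 0.96 (adjusted p = 0.0392) and SNORD29 (adjusted p = 0.0387), while 3.8% of all genes were called higher. SNHG1 was then called as well, at 0.82 (adjusted p = 0.0112).

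Whether CB-6644 changed the recovery was tested as an interaction, the GFP over uncoupled difference after CB-6644 minus that in untreated cells. 3 of the 7 were called, all higher, against 0.138% of all genes. SNORD22 gained 5.63 ± 0.76 on the log2 scale (edgeR adjusted p = 0.00818), SNORD27 5.41 ± 0.79 (adjusted p = 0.00114) and SNORD29 4.85 ± 0.92 (adjusted p = 0.0235). SNORD26 stood at 5.89 ± 1.28 and did not pass (adjusted p = 0.167). SNORD31, SNORD30 and SNORD28 stood at 2.77, 2.70 and 1.84 with adjusted p of 0.352, 0.411 and 0.592, and SNHG1 at 0.97 ± 0.32 (adjusted p = 0.268). SNHG1 was called without the 3 libraries that stood apart, at 0.98 (edgeR adjusted p = 0.0201). The number called was 0 without replicate 1 of the untreated uncoupled beads. It was 1 without replicate 1 of the untreated GFP beads or of the CB-6644 uncoupled beads. Without the 3 libraries it was 4, SNORD26 at 4.99, SNORD27 at 4.70, SNORD22 at 4.18 and SNORD29 at 3.29, and 4.04% of all genes were called higher. As plain ratios of mean CPM on GFP beads, with no test, CB-6644 over untreated was 52.8 for SNORD22, 23.1 for SNORD26, 13.7 for SNORD27, 10.4 for SNORD29, 4.77 for SNORD28, 3.68 for SNORD31, 3.06 for SNORD30 and 2.53 for SNHG1. Without CB-6644 GFP library 2 these ratios were 20.4 for SNORD22, 7.91 for SNORD26, 7.13 for SNORD27, 4.50 for SNORD29, 1.42 for SNORD28, 2.50 for SNORD31, 1.24 for SNORD30 and 3.03 for SNHG1.

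The change with CB-6644 was also measured with puromycin in both arms, and the 2 changes were not tested against each other. With puromycin 0 of the 7 were called by edgeR, against 0.106% of all genes. An unadjusted p under 0.05 was found for 4 (8.51% of all genes). DESeq2 called 3 of the 7 and 120 of all 15976 genes. SNORD26 stood at 4.56 ± 1.34 (edgeR adjusted p = 0.324), SNORD22 at 3.52 ± 0.80 (adjusted p = 0.164) and SNORD29 at 3.28 ± 0.78 (adjusted p = 0.126). SNORD31 was the one below 0, at -1.22 ± 1.15 (adjusted p = 0.851). Without the 3 libraries that stood apart edgeR called 3: SNORD26 at 4.75, SNORD22 at 3.61 and SNORD29 at 3.32, while 4.26% of all genes were called in either direction. Adding puromycin to CB-6644 gave values below 0 for all 7, from -1.10 to -2.77 with a median of -2.08. edgeR called 0 of them, as did DESeq2, with 3 at an unadjusted p under 0.05, against 2.06% of all genes at that p and 0.0501% called. The sign depended on the libraries that stood apart: without them SNORD22 stood at 0.24 and SNORD26 at 0.58, and the other 5 stayed below 0. Adding puromycin to untreated cells gave values on both sides of 0, from -1.25 for SNORD28 to 1.23 for SNORD31. edgeR called 0 of the 7 there, DESeq2 0 of the 2 it adjusted, and 0 had an unadjusted p under 0.05, against 0.113% of all genes called. These comparisons share libraries with one another.

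With RPAP3, the other bait, no snoRNA differed between the kinds of bead by the test. Summed counts were 63 and 92 on GFP beads after puromycin, against 105 and 172 on the uncoupled beads. In untreated cells they were 256 and 187 on the GFP beads, against 119 and 377 on the uncoupled beads, so the groups overlapped. SNORD30 fell below the count filter in this line, with 7 and 8 counts on untreated GFP beads against 4 and 4 on the uncoupled beads. Its CPM there did not overlap, with GFP above. After puromycin SNORD31, SNORD30 and SNORD28 did not overlap either, with GFP below, all at low counts. The other detected snoRNAs overlapped in both comparisons. The share of all genes without overlap was not worked out for this line. Of the 6 tested, edgeR called 0 after puromycin and 0 in untreated cells, and 0 had an unadjusted p under 0.05 in either. DESeq2 gave none of them an adjusted p. Of all genes 0.46% and 1.54% were called in these comparisons. After puromycin the 6 ranged from -1.81 ± 1.03 for SNORD31 to 0.10 ± 0.75 for SNORD29, and in untreated cells from -0.13 ± 0.75 for SNORD26 to 1.07 ± 1.03 for SNORD28. SNORD22 had 71 and 60 counts on untreated GFP beads, against 59 and 77 on the uncoupled beads, a difference of 0.10 ± 0.48. Standard errors were 0.48 to 1.03 in untreated cells and 0.51 to 1.42 after puromycin. At these counts even differences of several fold may not have been detectable. The change with puromycin was called for 0 of 6 by edgeR, with 0 at an unadjusted p under 0.05 and no adjusted p from DESeq2, and for 0.25% of all genes. It ranged from -2.43 to 0.16.

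The baits were compared directly in a fit of all 24 libraries. Each bait was tagged in its own line, and the lines may have been made and sequenced apart. Bait and batch therefore cannot be told apart here, beyond what the uncoupled beads of each line control for. In untreated cells the RUVBL1 difference minus the RPAP3 difference lay above 0 for all 7, from 0.81 to 2.78. edgeR called 0 of 7, with 1 at an unadjusted p under 0.05 (8.97% of all genes), and DESeq2 called 0 of the 2 it adjusted, against 0.407% of all genes called by edgeR. After puromycin 1 was called, SNORD31 at 5.66 ± 1.34 (edgeR adjusted p = 0.015), while 3.98% of all genes were called higher. SNORD31 had 30 and 68 counts on RUVBL1 GFP beads against 2 and 3 on the uncoupled beads, and 2 and 6 on RPAP3 GFP beads against 12 and 22 on the uncoupled beads. DESeq2 gave it no adjusted p, and leaving out any of 4 of the 8 libraries ended the call. Those were replicate 2 of the RUVBL1 GFP beads (adjusted p = 0.122), replicate 1 of the RUVBL1 uncoupled beads (0.119), replicate A of the RPAP3 GFP beads (0.101) and replicate B of the RPAP3 uncoupled beads (0.0781). SNORD30 stood at 3.95 ± 1.31 (edgeR adjusted p = 0.078). No RPAP3 library with CB-6644 is among the 24.

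The drugs were also compared on uncoupled beads alone. In the RUVBL1 line the 7 snoRNAs differed between CB-6644 and untreated cells by -1.69 to 0.36 on the log2 scale. edgeR called 0 of them and 0% of all genes, DESeq2 0 of the 7 and 5 genes, and 1 of the 7 and 860 genes had an unadjusted p under 0.05. SNORD22 had 87 and 93 counts after CB-6644, against 86 and 44 in untreated cells, a difference of 0.06 ± 0.55. Without the 3 libraries that stood apart SNORD26 was called lower, at -2.02 (edgeR adjusted p = 0.0246), with 1.3% of all genes called lower. Between puromycin and untreated cells the 7 differed by -2.07 to 0.60. edgeR called 0 of them and 0% of all genes, DESeq2 0 of the 2 it adjusted and 34 genes, and 2 of the 7 and 1464 genes had an unadjusted p under 0.05. SNORD22 was called lower there without the 3 libraries, at -1.41 (edgeR adjusted p = 0.0276), with 0.743% of all genes called lower. In the RPAP3 line 43% of all genes were called between puromycin and untreated cells. The 6 tested snoRNAs lay between -1.26 and -0.05, with 0 called by edgeR, 0 of 5 by DESeq2 and 0 at an unadjusted p under 0.05. SNHG1 was lower there, at -0.50 ± 0.13 (edgeR adjusted p = 0.00427).

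The make-up of the pool differed between libraries. SNORD22 took 69.7% and 71.5% of the summed snoRNA counts on GFP beads after CB-6644, and 71.4% and 70.5% after both drugs. On GFP beads of untreated cells it took 29.1% and 34.4%. The share was also high on the uncoupled beads after CB-6644, at 64.9% and 72.1% of 134 and 129 counts. It ranged from 20.4% to 72.1% over the 20 libraries other than the 4 GFP ones with CB-6644, with a median of 38.4%. Corrected for length, the order of mean levels on GFP beads after CB-6644 was SNORD22 at 2947 ± 2558 CPM per kilobase, SNORD26 at 1004 ± 933, SNORD29 at 404 ± 324, SNORD27 at 308 ± 209, SNORD31 at 185 ± 83.9, SNORD30 at 108 ± 90.5 and SNORD28 at 94.2 ± 93.5 (SD, n = 2 each). No neighbours in that order were further apart than their spread, but all were measured in the same 2 libraries. Replicate 2 was the higher for each snoRNA, and each library taken alone gave the same order. In untreated cells the levels lay closer together, from 55.8 ± 20.6 for SNORD22 and 50.4 ± 10.7 for SNORD31 down to 19.8 ± 8.34 CPM per kilobase for SNORD28. SNORD31 stood next to SNORD22 at the top of that order, but below SNORD27 after CB-6644.

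**Figure D3:**
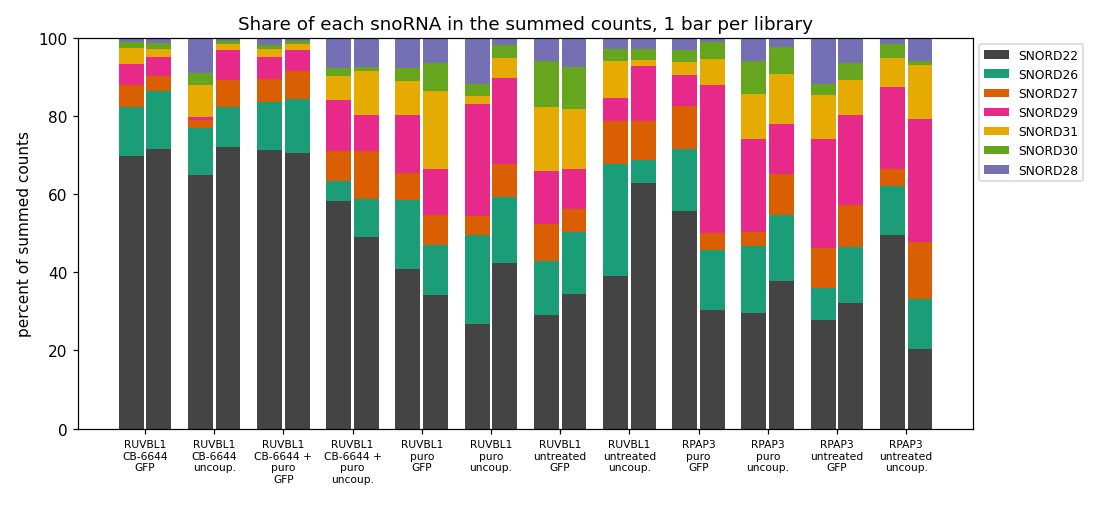
Share of each snoRNA in the summed counts of the 7 detected snoRNAs, in percent, with 1 bar per library and 2 bars per group. SNORD22 (dark grey) takes 69.7% to 71.5% of the counts in the 4 RUVBL1 GFP libraries with CB-6644.

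Across the 24 libraries, after subtracting each line's mean, log2 CPM of the 7 snoRNAs correlated pairwise at 0.803 to 0.94 over the 21 pairs, with a median of 0.85. These libraries share depth and treatment groups, so the values describe the table only.

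The host RNA differed by 1.53 after CB-6644 and by 1.52 after both drugs with RUVBL1, below each of the 7 snoRNAs in value in those comparisons. SNHG1 stood at 261 and 175 CPM on GFP beads after CB-6644, against 75.4 and 72.0 CPM on the uncoupled beads. After both drugs it stood at 175 and 176 CPM on the GFP beads, against 65.5 and 56.2 CPM on the uncoupled beads. Per 100 counts of SNHG1 there were 78.8 and 478 snoRNA counts on GFP beads after CB-6644, against 8.15 and 7.72 on the uncoupled beads. After both drugs there were 199 and 236 on the GFP beads, against 16.7 and 26.1 on the uncoupled beads. The other libraries, both lines included, lay between 2.63 and 29.0. In untreated cells the host was at 83.7 and 88.8 CPM on the GFP beads, against 48.8 and 66.5 CPM on the uncoupled beads, a log2 difference of 0.56 ± 0.23 (edgeR adjusted p = 0.345). After puromycin it differed by 0.08 ± 0.23 (adjusted p = 0.879). With RPAP3 it differed by 0.03 ± 0.13 after puromycin and by -0.10 ± 0.13 in untreated cells (adjusted p = 0.999 and 0.94). The snoRNAs lie within the host's introns, and the rule for assigning reads over both is not stated here. Reads of unspliced host RNA over a snoRNA therefore cannot be told apart from reads of the snoRNA.

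Other snoRNAs were set beside them in the same fit. Of 10 GAS5-hosted, 304 other box C/D and 182 box H/ACA snoRNAs, only those passing the count filter were tested. A snoRNA could pass through its counts in the CB-6644 GFP libraries alone. The shares called and the medians below may therefore partly follow from the filter. Of the 9 tested GAS5-hosted box C/D snoRNAs, 6 were called higher with RUVBL1 after CB-6644, with a median of 4.66, and of 109 other box C/D snoRNAs 58, with a median of 4.73. None of 79 box H/ACA snoRNAs, the class that guides pseudouridine, was called by edgeR. Of these 15 had an unadjusted p under 0.05, as had 22.1% of all genes. DESeq2 called 4 of them and 1426 of all 15976 genes, and their median was 2.14. When the 3 libraries that stood apart were left out, 5 of 9 GAS5-hosted (median 4.03) and 40 of 107 other box C/D snoRNAs (median 3.90) were called higher. Of 78 H/ACA snoRNAs 0 were then called higher and 2 lower, with a median of -1.16. The sets were not tested against one another. The H/ACA levels moved with the libraries that stood apart. Their summed level was 60.3 and 955 CPM on GFP beads after CB-6644, against 125 and 99.5 CPM on the uncoupled beads. After both drugs it was 534 and 84.5 CPM on GFP beads, against 129 and 169 CPM on the uncoupled beads. In the GFP libraries that did not stand apart, replicate 1 after CB-6644 and replicate 2 after both drugs, H/ACA snoRNAs were thus below both uncoupled libraries. The SNHG1-hosted snoRNAs were at 206 and 413 CPM in those libraries, above every uncoupled library. For the SNHG1-hosted sum, the library that stood apart was the higher after CB-6644 (839 CPM) and the lower after both drugs (347 CPM). The part of whatever set the other 2 GFP libraries apart in their larger H/ACA values was not tested.

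**Figure D4:**
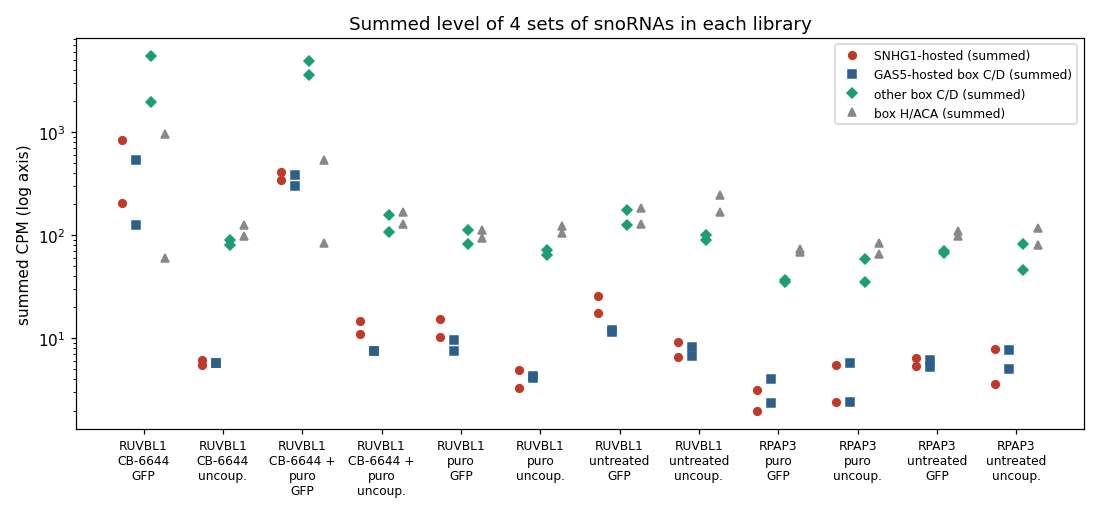
Summed level in CPM (log axis) of the SNHG1-hosted, GAS5-hosted and other box C/D snoRNAs and of box H/ACA snoRNAs in each library, with 2 points per group. The 3 box C/D sets are high in all 4 RUVBL1 GFP libraries with CB-6644, while H/ACA snoRNAs are high in 1 library of each of these 2 groups, at 955 and 534 CPM.

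The genes most like the snoRNAs over the 24 libraries, by Pearson correlation of line-centred log2 CPM with their summed counts among 14366 genes, were SCARNA2 (0.969), SNORD55 (0.968), SNORD41 (0.966), SNORD33 (0.958) and SCARNA10 (0.957). SCARNA2 and SCARNA10 are Cajal body RNAs and the other 3 are box C/D snoRNAs. SNHG1 ranked 49 with 0.888, and GAS5, the host of another snoRNA cluster, ranked 1371 with 0.514. SNORD41 had 196 to 688 counts in the RUVBL1 GFP libraries with CB-6644, and 0 to 14 in all others. Likeness outside those libraries was not measured, so these values too describe the table only.

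The mRNAs of the proteins that build and assist the box C/D particle were measured in the same fit. After CB-6644, 2 of 14 were called higher on RUVBL1 GFP beads and none lower, ZNHIT6 at 0.94 ± 0.25 (edgeR adjusted p = 0.0435) and RPAP3 at 2.52 ± 0.45 (adjusted p = 0.0139), where 1.87% of all genes were called higher. The median of the 14 was 0.09. The mRNAs of the core proteins, which were not called and were singled out after their values were seen, stood at -0.71 (FBL), 0.62 (NOP56), 0.09 (NOP58) and -0.75 (SNU13), and the bait mRNA RUVBL1 at 0.18, and none of these passed the test. After both drugs edgeR and DESeq2 each called 0 of 14, with 0 at an unadjusted p under 0.05, against 0.557% of all genes called higher and none lower. In untreated RUVBL1 cells edgeR called 0, against 0.933% of all genes in either direction. 6 of the 14 and 11.1% of all genes had an unadjusted p under 0.05. DESeq2 called 3 of the 14 and 367 of all 15976 genes. After puromycin edgeR called 9.95% of all genes higher and 3.82% lower, and 1 of the 14, lower, C12orf45 at -0.73 (adjusted p = 0.0207), the gene now named NOPCHAP1, whose protein helps to assemble the particle. On RPAP3 GFP beads of untreated cells 1 of 14 was called, the bait's own mRNA RPAP3 at 3.27 ± 0.14 (adjusted p = 4.23e-13), where 1.53% of all genes were called higher. After puromycin 0 were, against 0.46% of all genes, by edgeR, by DESeq2 or at an unadjusted p under 0.05.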

How the data were processed

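RNA co-purified with GFP-tagged RUVBL1 or RPAP3, and RNA from uncoupled beads, was sequenced in 24 libraries. The deposited values are whole-number counts of reads per gene, not normalized. Per the submitters' processing notes, the authors' tools were TopHat2 2.1.1 (an aligner), featureCounts 2.0.3 (a read counter), FastQC 0.11.9, MultiQC 1.12 and bcl2fastq 2.20.0.422, and the build was hg38; the notes as used here give no settings. The settings for strand, overlapping genes and reads with several hits are not given in the sources used here. Per the labels' protocols, RNA was purified on RNeasy columns, which favour longer RNAs, so levels of snoRNAs of different length may be affected unequally.

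Counts were tested with edgeR 4.0.16 (R 4.3.3, limma 3.58.1): filterByExpr with a minimum count of 10, TMM scaling, and a robust quasi-likelihood fit with 1 term per group. The 16 RUVBL1 and 8 RPAP3 libraries were fitted separately, and all 24 together to compare baits. p-values of the 16 comparisons were adjusted by Benjamini-Hochberg over all genes of each fit, with calls at an adjusted p under 0.05. Log2 CPM used a prior count of 2. Floors used 3 counts and cover counting error only. The script was tested on simulated data.

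The 8 snoRNAs and the gene lists were chosen with earlier results of these data known. The genes named are the 8 snoRNAs, SNHG1, the 5 genes most like their sum (mean of at least 10 counts), and called genes or baits of a 14-gene list for the box C/D particle. GAS5 and the mRNAs of FBL, NOP56, NOP58 and SNU13 were named outside this rule, after their values were seen. Other box C/D snoRNAs leave out U3 copies and symbols starting with SNORD13 or SNORD118. Alternatives were no low-count filter, other scaling, DESeq2 1.42.0, a replicate block, 1 fit of all libraries, each replicate left out, and, chosen after seeing the data, leaving out the 3 libraries that stood apart. Replicate numbers were not treated as pairs in the main fit, and whether they pair the libraries was not settled. SnoRNA positions come from RefSeq, matched by gene ID, and that of SNHG1 was matched by symbol.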

Additional observations from a re-analysis of the deposited data

Results flagged for a closer look

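In 4 results the effect of one contrast differed between conditions or baits by an interaction test in edgeR. The GFP over uncoupled difference with RUVBL1 was larger after CB-6644 than in untreated cells by 5.63 on the log2 scale for SNORD22, by 5.41 for SNORD27 and by 4.85 for SNORD29. After puromycin, the difference for SNORD31 was larger with RUVBL1 than with RPAP3 by 5.66, where bait and batch cannot be told apart beyond the bead control.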

How the results depend on the processing

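All 7 tested snoRNAs were called with RUVBL1 after CB-6644, and 5 to 7 were under the alternatives. In untreated RUVBL1 cells 0 were called, against 3 with no low-count filter, 1 in 1 fit of all 24 libraries and 2 without the 3 libraries that stood apart. After puromycin 1 was called, against 3 with no filter, 3 with the replicate block, 3 with DESeq2, 4 without the 3 libraries, and 0 to 1 with a replicate left out. After both drugs 5 were called, against 1 to 4 with a replicate left out. The change with CB-6644 was called for 3, against 0 to 4 with a replicate left out. With puromycin in both arms it was called for 0, against 2 with no filter, 3 with DESeq2 and 3 without the 3 libraries. The change with puromycin under CB-6644 was called for 0, against 1 with no filter and 0 to 2 with a replicate left out. The bait difference after puromycin was called for 1, against 0 to 2 with a replicate left out. On uncoupled beads of the RUVBL1 line puromycin and CB-6644 each gave 0, against 1 each without the 3 libraries. The cause of these shifts was not tested. Fits with a replicate left out also had fewer samples, and that was not separated from which library was dropped. The number of all genes called shifted with the setting as well. With DESeq2 it went from 2201 to 3104 after puromycin. For the change with CB-6644 under puromycin it went from 17 to 120. Shares of all genes without the 3 libraries are given with the comparisons above. Over all alternatives for the number of snoRNAs called, 164 values were equal to the main count or within 1.5 times of it and 28 were not. Most of the 164 were 0 against a main count of 0, so this tally says little on how stable the calls are. The median of H/ACA snoRNAs after CB-6644 was 2.14, and -1.16 without the 3 libraries.

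The replicate numbers gave correlations of -0.5 to 0.379 over 28 pairs of RUVBL1 groups, 11 of them over 0.1, and 0.00318 to 0.262 over 6 RPAP3 pairs. Uncoupled beads gave several of the snoRNAs under 10 counts in some libraries, which limits their differences.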
